A study of Mus musculus with 6 samples.

Results

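The 3 libraries of untreated, cultured hepatocytes from WT mice were taken as a description of what such cells express, out of 6 libraries in the series. They were chosen by their genotype label alone, and no comparison with the other genotype was made. The mice were on a B6CBAF1 background, ate regular chow, carried no transgene, and were littermates of the heterozygous Alb/MDA-9 animals that make up the other group; their ages, the time in culture and the medium are not stated in the labels. The labels number the libraries WT 1, WT 2 and WT 3 and do not state that each had its own animal or culture, so the SD over libraries may be partly technical.

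Hepatocytes are the parenchymal cells of the liver. They secrete most plasma proteins, detoxify drugs, and handle glucose, amino acids, lipids and bile acids. Once taken out of the liver and plated, primary hepatocytes are known to flatten, to build up actin, tubulin and keratin filaments, to switch on stress genes and to lose part of their specialised metabolism.

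Sense-strand reads in genes came to 18967611 in WT 1, 18897555 in WT 2 and 16403918 in WT 3. Levels are given as CPM, counts scaled to the total of gene reads, or, wherever different genes are set side by side, as TPM, which also divides each count by the summed exon length of the gene. A gene without a read could have been present at up to 0.158, 0.159 and 0.183 CPM in WT 1 to 3, the level of 3 reads. Of 21974 protein-coding genes, 11316 (51.5%) reached 1 CPM in every library, and the median mean level of those genes was 16.7 TPM.

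A small number of genes took a large part of the reads, and plasma protein genes were prominent among the highest by TPM. The single highest gene held 5.86% ± 0.267 of gene reads (SD, n = 3), the 10 highest together 15.1% ± 0.164, the 100 highest 34.3% ± 0.107 and the 1000 highest 61.1% ± 0.0401. In every library 1720 genes reached 100 CPM, 76 reached 1000 CPM and 3 reached 10000 CPM. Among the 30 protein-coding genes with the highest mean TPM, 16 belonged to the plasma protein lists, 6 were encoded in the mitochondrial genome, 2 were in the list of cytoskeletal and culture genes and 2 were metallothioneins. The remaining 4 were Sprr1a, Clu, B2m and the ribosomal protein gene Rplp1. Most ribosomal protein genes share sequence with other genes, and their levels are not read below as levels of expression.

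Alb (ENSMUSG00000029368, chromosome 5, 90460897 to 90476602 on GRCm38), which encodes serum albumin, was the highest gene, at 70276, 68667 and 65269 TPM in WT 1 to 3. Its lowest library, WT 3, was within 1.09-fold of its highest on the CPM scale. Sprr1a (ENSMUSG00000050359, chromosome 3, 92483952 to 92485895) encodes a small proline-rich protein of the cornified envelope, the cross-linked shell of stratified epithelia. It stood at 32541, 32908 and 32247 TPM, rank 3 of all genes and the highest nuclear gene after Alb. Its 3 libraries lay within 1.03-fold of each other on the CPM scale. Clu, which encodes the secreted chaperone clusterin, had a level of 6488 ± 113 TPM and B2m, the light chain of MHC class I, one of 5815 ± 327 TPM (SD, n = 3).

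The windows around the start sites of Alb, of Sprr1a and of the metallothionein gene Mt2, which was the highest of the stress genes, are shown because these genes lead the secretory, epithelial and metal-response transcripts described here. Each runs from 250 bases before to 50 bases after the annotated start, 5′ to 3′ on the strand of the gene, from RefSeq on GRCm38.p6. They lie at chr5:90460620-90460919 on the plus strand for Alb, at chr3:92485832-92486131 on the minus strand for Sprr1a and at chr8:94172368-94172667 on the plus strand for Mt2. The starts used for these windows differ from the GENCODE M21 gene coordinates given above for Alb and Sprr1a. Distances below are from the RefSeq starts.
Alb: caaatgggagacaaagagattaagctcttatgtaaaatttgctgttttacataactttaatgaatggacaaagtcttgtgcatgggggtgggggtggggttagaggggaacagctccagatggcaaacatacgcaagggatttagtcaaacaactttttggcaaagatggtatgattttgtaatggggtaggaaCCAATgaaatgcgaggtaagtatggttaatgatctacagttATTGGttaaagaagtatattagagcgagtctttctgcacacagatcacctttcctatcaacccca
Sprr1a: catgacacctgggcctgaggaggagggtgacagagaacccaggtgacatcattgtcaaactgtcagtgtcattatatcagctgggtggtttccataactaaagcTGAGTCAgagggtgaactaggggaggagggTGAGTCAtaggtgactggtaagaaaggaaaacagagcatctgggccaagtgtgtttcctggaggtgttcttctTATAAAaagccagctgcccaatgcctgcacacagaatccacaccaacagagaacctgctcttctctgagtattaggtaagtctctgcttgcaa
Mt2: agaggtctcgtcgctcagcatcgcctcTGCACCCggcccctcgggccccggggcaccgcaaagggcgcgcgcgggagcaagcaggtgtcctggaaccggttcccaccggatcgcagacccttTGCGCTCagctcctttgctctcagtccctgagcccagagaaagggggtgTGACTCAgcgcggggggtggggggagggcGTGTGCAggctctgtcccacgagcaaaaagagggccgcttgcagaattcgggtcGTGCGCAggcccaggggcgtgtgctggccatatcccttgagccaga
Capitals mark, on either strand, the CCAAT box CCAAT in the Alb window, the AP-1 motif TGANTCA and the TATA box TATAAA in the Sprr1a window, and TGANTCA with the metal response core in the forms TGCACNC and TGCGCNC in the Mt2 window, and no 2 capitalised matches overlap. Sprr1a held 2 matches to TGANTCA, starting 146 and 116 bases before the start site, and Mt2 held 1 match to TGANTCA, 2 to TGCACNC and 2 to TGCGCNC. Matches left in lower case were 1 to TGCACNC in Alb, and 1 to CCAAT and 1 to TGCACNC in Sprr1a. Of all 32851 windows of this length, 7.81% held TGANTCA, 13.6% TATAAA, 37.4% CCAAT, 12.6% TGCACNC and 15.4% TGCGCNC. Of the 11856 windows of genes at or above 1 CPM in every library, 5.29% held TGANTCA, 7.55% TATAAA, 37.8% CCAAT, 12.7% TGCACNC and 26.0% TGCGCNC. These matches are letters in a window and were not tested as sites.

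**Figure D1:**
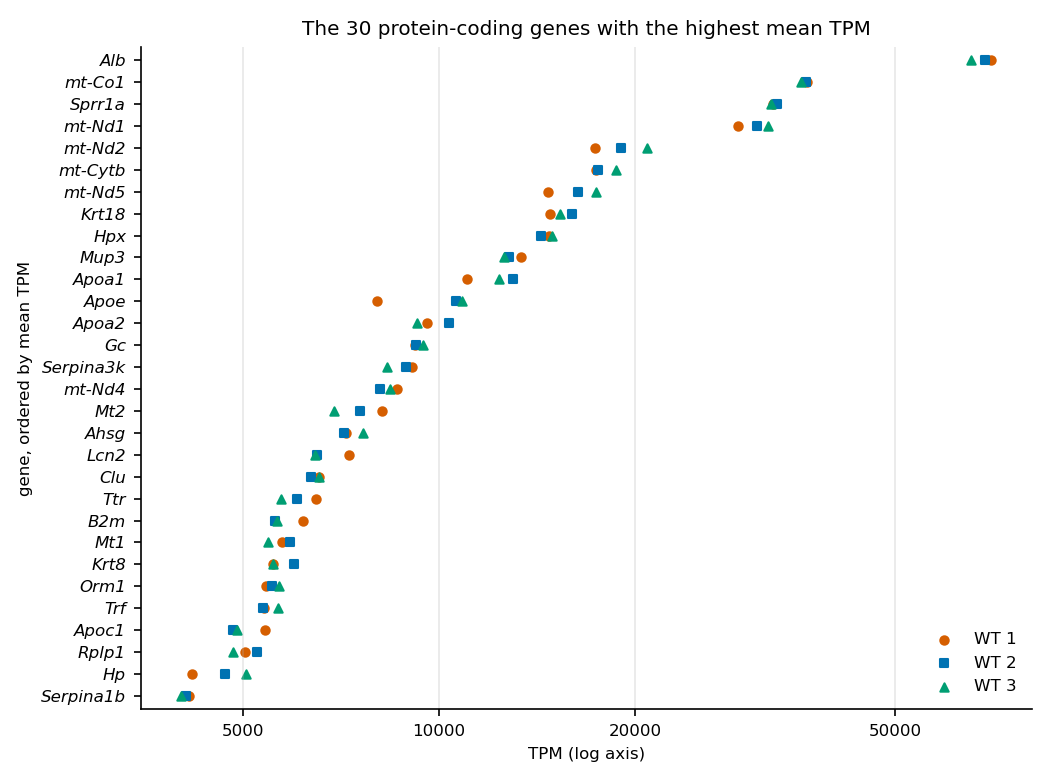
TPM (log axis) of the 30 protein-coding genes with the highest mean TPM, with 1 point per library (WT 1 circles, WT 2 squares, WT 3 triangles). Alb leads at 65269 to 70276 TPM, Sprr1a is the third gene from the top, and the libraries lie farthest apart at Apoe, which is lowest in WT 1.

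Genes for plasma proteins took more reads than any other class described here. The union of the lists of carrier proteins, apolipoproteins, protease inhibitors, coagulation factors, complement, acute phase proteins and major urinary proteins held 147 genes, of which 135 reached 1 CPM in every library. Together they took 19.9%, 19.9% and 19.7% of gene reads in WT 1 to 3, a mean of 19.8% ± 0.151 (SD, n = 3). The median of their mean levels was 230.2 TPM, against 16.7 TPM for the protein-coding genes at or above 1 CPM.

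Carriers and apolipoproteins formed the top of this class. Besides Alb, the carriers included Hpx, which binds haem, at 14763, 14316 and 14886 TPM, and Selenop, which carries selenium, at 3673, 3480 and 3834 TPM. Ahsg (fetuin A) stood at 7207, 7139 and 7649 TPM and Ttr, the thyroid hormone and retinol carrier transthyretin, at 6477, 6050 and 5723 TPM. Each of these 4 genes ranged over less than 1.5-fold between libraries. Of 28 carriers 27 reached 1 CPM, with a median of 840.2 TPM. Apoa1, the main protein of high-density lipoprotein, had a level of 12139 ± 994 TPM (SD, n = 3), and Apob, the core protein of very-low-density lipoprotein, one of 550 ± 9.41 TPM. Apoe, a ligand of lipoprotein receptors, was at 8048 TPM in WT 1, against 10634 and 10840 TPM in WT 2 and WT 3. Its WT 1 library was thus the lowest, by 1.32-fold on the CPM scale from the highest. Trf, the iron carrier transferrin, stood at 5478 ± 165 TPM, but 59.4% of its 50-base windows also occur in another annotated gene, so its level is uncertain.

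The 3 fibrinogen chains, which form the clot, had unequal levels per length. Fgb stood at 3417, 3902 and 3898 TPM, Fga at 1897, 2156 and 2203 TPM, and Fgg at 1979, 2154 and 2031 TPM, so WT 1 was lowest for each chain. All 21 coagulation genes reached 1 CPM, with a median of 132.4 TPM. Among complement genes C3, the central component, led with 2130 ± 131 TPM (SD, n = 3), and Cfd, the protease of the alternative pathway that fat cells supply to plasma, had 0 reads in all 3 libraries. The protease inhibitors were led by Serpina3k at 8772 ± 411 TPM, of which 13.97% of windows are shared with other genes.

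Acute phase genes, which the liver raises in inflammation, were expressed as a group. Of 24 listed genes 23 reached 1 CPM and 10 reached 1000 TPM in every library, with a median of 677 TPM. The list overlaps with the other plasma protein lists, so it is not a separate group. Its highest member was the carrier gene Hpx, at a mean of 14655 TPM. Lcn2, a protein that binds bacterial iron carriers and whose gene answers to NF-kB and IL-6 signals, stood at 7287, 6507 and 6457 TPM, highest in WT 1. Orm1, an orosomucoid, had 5554 ± 121 TPM and Saa1, a serum amyloid A, 2438 ± 203 TPM (SD, n = 3), and both share a part of their windows with their paralogues. The iron hormone gene Hamp was lower in the order at 164, 185 and 142 TPM, and Crp, C-reactive protein, was at 109 ± 4.85 TPM.

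Major urinary proteins, male-biased pheromone carriers of mouse liver, took 0.793% ± 0.0339 of gene reads. Mup3 led them at 13346, 12782 and 12586 TPM, followed by Mup7 at a mean of 2044 TPM. Of the 21 listed genes 20 share at least 10% of their windows with another gene, and Mup3 shares 13.3%. The levels within the family are therefore uncertain, and 15 members reached 1 CPM.

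**Figure D2:**
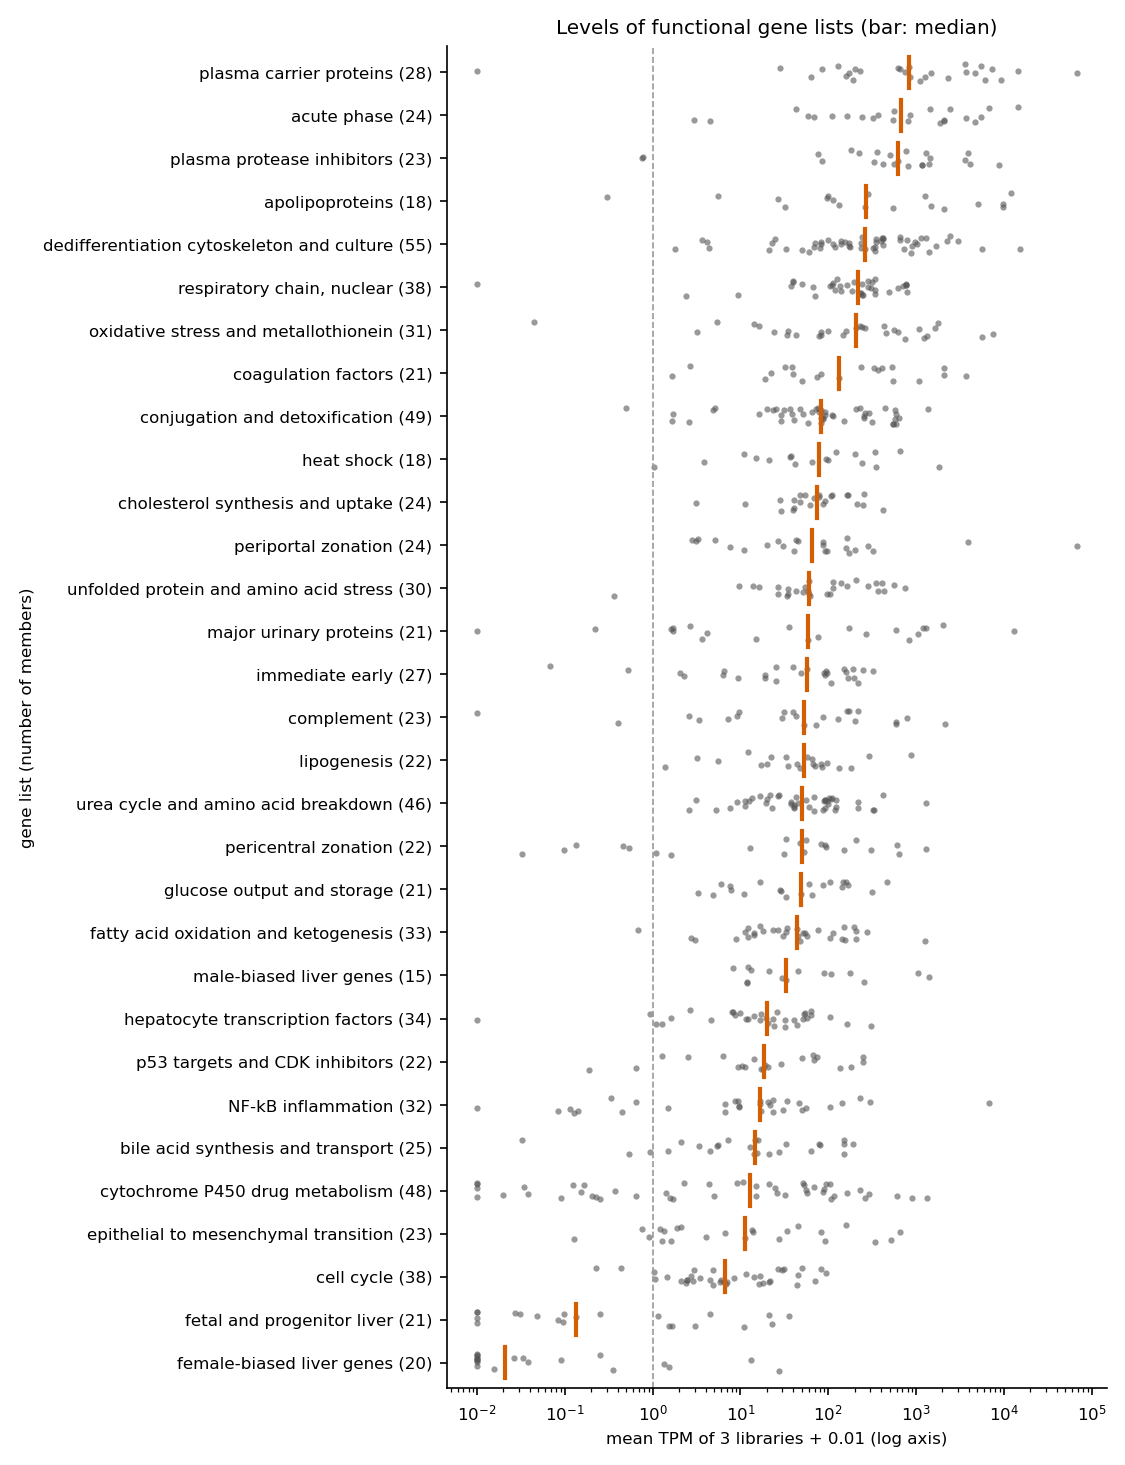
Mean TPM over 3 libraries plus 0.01 (log axis) of each gene (grey points) in the functional lists, ordered by their medians (orange bars), with a dashed line at 1 TPM. Plasma carriers lie at the top with a median of 840.2 TPM, the cytoskeleton and culture list reaches 263.9 TPM, and fetal and female-biased liver genes lie at the bottom.

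Genes of drug and toxin handling ranged widely. Of 48 cytochrome P450 genes, 31 (64.6%) reached 1 CPM in every library, 24 reached 10 TPM and 10 reached 100 TPM, with a median of 12.7 TPM. The median was 52.2 TPM without members under 10 mean reads, and 23 of the 48 genes share at least 10% of their windows with another gene. Cyp2c70, which makes the muricholic acids of mouse bile, led them at 1436, 1309 and 1302 TPM. Cyp3a11, the main steroid and drug hydroxylase of its family, followed at 834, 953 and 939 TPM, and Cyp2e1, which oxidises ethanol and acetaminophen, at 607, 614 and 618 TPM. Every library of these 3 genes was above those of Cyp1a2, a target of the aryl hydrocarbon receptor, at 101, 97.0 and 86.0 TPM. Cyp2b10, the classic target of the receptor CAR, stood at 25.0 ± 2.47 TPM (SD, n = 3) and Cyp1a1 at 2.26 ± 0.628 TPM. Conjugating enzymes were more evenly present. In that list 47 of 49 genes reached 1 CPM, with a median of 82.1 TPM, led by the glutathione transferase Gstm1 at 1385 ± 104 TPM, which shares 18.9% of its windows. Por, the reductase that feeds electrons to the P450 enzymes, had 583 ± 23.3 TPM.

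Amino acid genes were all present, at middling levels. Each of the 46 listed genes reached 1 CPM, with a median of 50.7 TPM. Cdo1, which oxidises cysteine on the way to taurine, was at 1275, 1323 and 1273 TPM, well above the rest of the list. Of the urea cycle, Arg1, which releases urea, stood at 329, 323 and 326 TPM, Cps1, which starts the cycle in the mitochondrion, at 90.3, 85.5 and 85.0 TPM, and Otc, the next enzyme, at 43.4, 44.2 and 39.7 TPM. The libraries of these 3 genes did not overlap with one another. At the other end of the list were Bhmt, which remethylates homocysteine, at 2.08, 3.08 and 2.64 TPM with 25.3% of its windows shared, and Hal, which starts histidine breakdown, at 2.87, 3.30 and 3.05 TPM. Sds, the serine dehydratase that feeds glucose synthesis, was at 7.90, 8.08 and 6.92 TPM.

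The genes that mark hepatic glucose output were among the low ones. G6pc, the phosphatase that releases free glucose, stood at 4.01, 2.93 and 2.84 TPM, and Pck1, the cytosolic PEP carboxykinase, at 12.7, 12.5 and 7.66 TPM. Both lay under the median of 49.0 TPM of the 21 genes of glucose output and storage, all of which reached 1 CPM. Ugp2, which makes the sugar donor for glycogen, led that list with 461 ± 19.8 TPM (SD, n = 3). Pck1 was 1 of the genes that varied most between libraries, with 16.1, 15.7 and 9.57 CPM in WT 1 to 3.

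In lipid metabolism the fatty acid binding protein gene Fabp1 led, at 1120, 1471 and 1159 TPM, highest in WT 2. The median of the 33 genes of fatty acid oxidation and ketogenesis was 43.5 TPM. Within it the gate of mitochondrial import, Cpt1a, had 14.1 ± 1.52 TPM (SD, n = 3). Scd1, which desaturates stearate, was the highest of 22 lipogenic genes at 750, 925 and 921 TPM, lowest in WT 1. Fasn, fatty acid synthase, had 57.5 ± 1.42 TPM. All 24 genes of cholesterol synthesis and uptake reached 1 CPM, with a median of 73.7 TPM. Hmgcs1, an early enzyme of sterol synthesis, led them at 411, 423 and 426 TPM.

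Bile acid genes spread from moderate to unmeasurable. Cyp7a1, the rate-limiting enzyme of the classic pathway of bile acid synthesis, had 1, 1 and 0 reads in WT 1 to 3, under the 3-read limit in each. Cyp27a1, which starts the alternative pathway, stood at 150, 151 and 148 TPM, and Cyp8b1, which sets the share of cholic acid, at 4.09, 5.25 and 4.12 TPM. Slc10a1, which encodes the bile salt uptake carrier NTCP, was at 15.0, 15.0 and 14.0 TPM and the export pump gene Abcb11 at 27.2, 27.9 and 27.7 TPM. The nuclear bile acid receptor gene Nr1h4 (FXR) had 64.4 ± 2.04 TPM (SD, n = 3), while Nr0b2 (SHP), a known FXR target, had 12, 3 and 6 reads.

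Most liver transcription factor genes were present. Of 34 listed, 32 reached 1 CPM, with a median of 20.1 TPM. Hnf4a, the nuclear receptor that maintains hepatocyte identity, was the highest at 301, 320 and 310 TPM. Foxa3, a forkhead factor of liver genes, followed Xbp1 in the order, with 99.3, 110 and 107 TPM. Nr1i3, which encodes CAR, was at 0.935, 1.44 and 0.872 TPM, whereas Nr1i2, which encodes the related drug receptor PXR, was at 37.1, 43.6 and 42.5 TPM. The libraries of these 2 receptor genes did not overlap. Hnf4g had 0 reads.

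Zonation genes, whose levels in the lobule differ between the portal and the central end, were found from both ends. Of the periportal list all 24 genes reached 1 CPM with a median of 65.9 TPM, and of the pericentral list 18 of 22 with a median of 50.2 TPM. Periportal Cyp2f2 had 161 ± 5.89 TPM and pericentral Glul, glutamine synthetase, 55.8 ± 0.598 TPM (SD, n = 3) with 11.9% of its windows shared. The Wnt-responsive pericentral genes Lgr5 and Axin2 had 3 to 12 and 0 to 6 reads per library.

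Pairs of genes, with 1 member taken as the adult liver form and the other as its counterpart, were compared by their TPM within each library. Not all are related forms of 1 protein, since Slc10a1 and Abcc3 encode an uptake carrier and an exporter. Cebpa and Cebpb are both liver-enriched. Abcc2 and Abcc3 each stand in more than 1 pair, so the counts below are not of independent pairs. In 13 of 20 pairs the adult liver member was higher in all 3 libraries, and in 7 it was lower in all 3. An exact sign-flip test over 3 libraries cannot give a p under 0.25, so none was run. A difference of 2-fold or more was found toward the adult liver member in 11 pairs and toward the other member in 5. With the longest transcript as gene length the adult member was higher in all 3 libraries in 11 pairs and neither member was in 2, Pck1 with Pck2 and Acacb with Acaca, and the 2-fold counts were 11 and 7. Of the 15 pairs in which no gene has 10% or more of its windows shared, a set taken after the values were seen, the adult member was higher in 9 and lower in 6, by 2-fold or more in 8 and 4. Among the pairs with a higher adult member, Alb exceeded the fetal Afp (alpha-fetoprotein) by a mean log2 ratio of 12.60 ± 0.05 (SD, n = 3), with Afp at 11.7, 10.9 and 10.1 TPM. Gjb1, the gap junction protein of hepatocytes, exceeded Gja1 by 5.92 ± 0.18. The epithelial cadherin gene Cdh1 exceeded Cdh2 by 2.21 ± 0.07. With the longest transcript as gene length these last values were 4.65 ± 0.18 for Gjb1 and 1.52 ± 0.07 for Cdh1.

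The 7 pairs in which the other member was higher lay in glucose uptake and use, glycogen synthesis, methionine use, transport and transcription factors. These fields did not go 1 way, since other pairs within them had the adult member higher. The mean log2 ratio was 1.33 ± 0.07 for Pfkl over Pfkp (phosphofructokinase) and 2.71 ± 0.26 for Pygl over Pygb (glycogen phosphorylase). It was 3.84 ± 0.14 for the transporters Abcc2 over Abcc4 and 4.48 ± 0.71 for the receptors Ppara over Pparg. Slc2a1, the widespread glucose transporter GLUT1, stood at 137, 143 and 137 TPM, against 34.1, 30.3 and 34.6 TPM of Slc2a2, the liver transporter GLUT2. Every library of Slc2a1 was above every library of Slc2a2, and the mean log2 ratio of the liver form was -2.07 ± 0.14. For pyruvate kinase, Pkm was 2.34-fold above Pklr, with 25.8% of the windows of Pkm shared with other genes. The log2 ratio of Pklr to Pkm was -1.22 ± 0.12, and -2.10 ± 0.12 with the longest transcript as gene length. Mat2a, the extrahepatic form of methionine adenosyltransferase, was 4.03-fold above Mat1a, at 182, 154 and 157 TPM against 41.7, 43.9 and 36.3 TPM. Abcc3, an exporter of the sinusoidal membrane, had 153 ± 1.27 TPM (SD, n = 3), 1.94-fold above the canalicular exporter Abcc2 and 10.4-fold above the bile salt carrier Slc10a1. Cebpb was 2.698-fold above Cebpa, both liver-enriched factors of the C/EBP family, a log2 ratio of -1.42 ± 0.19 for Cebpa that was -0.76 ± 0.20 with reads of either strand. Gys1, the glycogen synthase of muscle, was 1.72-fold above Gys2.

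**Figure D3:**
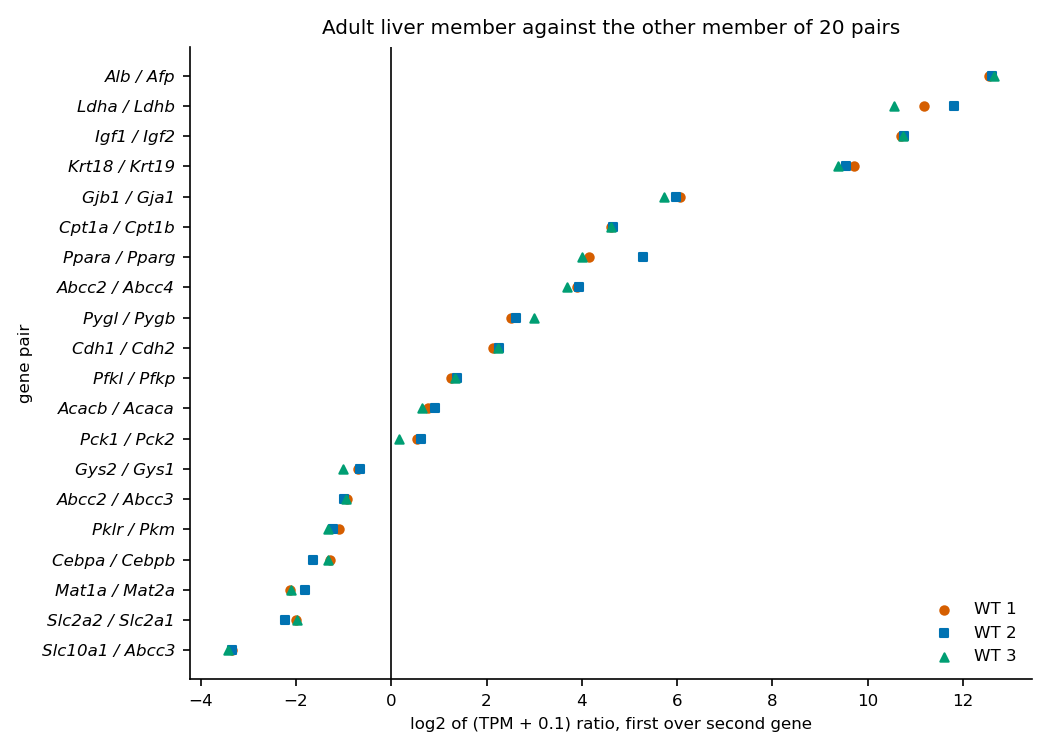
Log2 ratio of TPM plus 0.1 in each library, adult liver member over the other member, for 20 gene pairs ordered by their mean (WT 1 circles, WT 2 squares, WT 3 triangles), with a line at equal levels. Points of 13 pairs lie to the right of the line and those of 7 pairs to the left, and no pair has points on both sides.

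Genes of the cytoskeleton, of matrix contact and of other features of plated hepatocytes were all present, at 1.79 to 15368 TPM. All 55 of this list reached 1 CPM, 39 reached 100 TPM in every library, and together they took 4.34% ± 0.116 of gene reads (SD, n = 3) with a median of 263.9 TPM. Krt18 and Krt8, the keratin pair of simple epithelia that hepatocytes make, stood at 14776, 16012 and 15315 TPM and at 5565, 5987 and 5558 TPM, with 26.9% of the windows of Krt8 shared. Tgm2, tissue transglutaminase, an enzyme that cross-links proteins, was at 2672, 3050 and 3251 TPM, lowest in WT 1. Actb, beta-actin, was at 2228, 2681 and 2492 TPM, and Ccn2, a matricellular protein and target of YAP and TGF-beta signals, at 1125, 1115 and 1182 TPM. Vim, the intermediate filament protein of mesenchymal cells, had 342, 343 and 340 TPM, nearly the same in each library. Plau, the urokinase gene, was the lowest of the list at 2.04, 1.71 and 1.63 TPM, while its receptor gene Plaur stood at 112 ± 1.42 TPM. No library of uncultured cells was used, so a change upon plating was not tested.

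Of 23 genes of the epithelial to mesenchymal transition, 17 reached 1 CPM, with a median of 11.1 TPM. The epithelial junction genes Cldn3 and Cdh1 were at 514 ± 31.8 and 159 ± 11.1 TPM (SD, n = 3), and Fn1, fibronectin, which liver also secretes into plasma, at 653 ± 14.0 TPM. Snai1, a repressor of Cdh1, had 16, 23 and 5 reads, and Acta2, the actin of myofibroblasts, stood at 15.4, 14.8 and 11.96 TPM.

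Stress genes differed by pathway. The metallothioneins, zinc and copper binders that answer to metals and glucocorticoids, led, with Mt2 at 8175, 7561 and 6893 TPM and Mt1 at 5746, 5904 and 5476 TPM. Of 31 genes of the oxidative stress list 30 reached 1 CPM, with a median of 207.1 TPM. Gclc, which limits glutathione synthesis, stood at 1292, 1288 and 1452 TPM, Srxn1, which repairs peroxiredoxins, at 593, 550 and 520 TPM, and Hmox1, which degrades haem, at 778, 741 and 729 TPM. All 3 are known targets of NRF2. A further known target, the quinone reductase gene Nqo1, was far lower at 21.2, 14.8 and 12.5 TPM and was highest in WT 1.

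The unfolded protein and amino acid stress list had 29 of 30 genes at 1 CPM and a median of 61.0 TPM. The chaperone genes Calr and Hspa5 stood at 757 ± 62.7 and 556 ± 21.1 TPM (SD, n = 3), and the stress factor genes Atf4 and Atf5 at 365 ± 9.92 and 404 ± 26.6 TPM. Ddit3 (CHOP), which acts late in this response, had 13.3, 13.2 and 15.0 TPM, and the stress hormone gene Fgf21 had 3, 4 and 0 reads. Of heat shock genes Hsp90ab1, a constitutive chaperone, led at 1646, 1853 and 1924 TPM, and Hspa1a and Hspa1b, the inducible Hsp70 genes, had 1.04 ± 0.237 and 3.82 ± 0.983 TPM, with over 60% of their windows shared between near-identical copies. In the p53 list, with 19 of 22 genes at 1 CPM and a median of 18.6 TPM, the CDK inhibitor gene Cdkn1a (p21) stood at 253, 244 and 244 TPM and Mdm2, which degrades p53, at 64.6, 64.6 and 71.1 TPM.

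Immediate early genes, which respond to growth factors and injury within minutes, were unequal. Of 27 listed, 24 reached 1 CPM, with a median of 57.8 TPM. Klf6, a zinc finger factor, was at 318, 318 and 329 TPM, Myc, a driver of growth genes, at 188, 192 and 190 TPM, and Egr1, a zinc finger factor of the growth factor response, at 151, 146 and 157 TPM. Of the AP-1 genes, whose proteins bind TGANTCA, Jund was highest at 185, 255 and 216 TPM, Fosl1 (FRA1) stood at 93.1, 89.3 and 97.7 TPM, and Fos itself at 19.3, 17.1 and 20.8 TPM. Every library of Fosl1 was thus above every library of Fos.

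Of 32 genes of NF-kB driven inflammation, 23 reached 1 CPM, and the median over all 32 was 16.7 TPM. Without members under 10 mean reads the median was 21.7 TPM. Apart from Lcn2, the highest were the chemokine genes Ccl2, which draws monocytes, at 300, 297 and 304 TPM, and Cxcl1, which draws neutrophils, at 232, 212 and 247 TPM. The cytokine gene Tnf had 7, 3 and 1 reads, Nos2, the inducible nitric oxide synthase, 1, 4 and 4 reads, and Il6 had 0 reads in each library.

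Of 38 cell cycle genes 36 reached 1 CPM, 16 reached 10 TPM in every library and none reached 100 TPM. The genes that reached 10 TPM serve G1 and DNA replication, although Ccnd1, Ccnd2 and Tyms, of the same phases, did not reach it. Mcm6, a part of the replicative helicase, stood at 95.9, 91.9 and 91.4 TPM, Cdk4 at 89.5, 81.1 and 76.5 TPM, and Ccne1, the cyclin of the G1 to S step, at 27.1, 28.3 and 24.5 TPM. Among genes active later in the cycle, Mki67, the proliferation antigen, stood at 5.63, 5.93 and 5.89 TPM, Top2a, which untangles chromosomes, at 5.16, 4.89 and 4.68 TPM, and Cenpf, a kinetochore protein, at 24, 17 and 24 reads.

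Fetal and progenitor genes were mostly at the floor. Of 21 genes 8 reached 1 CPM, with a median of 0.125 TPM. Sox4 and Sox9, factors of liver progenitors and bile duct cells, were the highest at 33.1, 31.8 and 41.3 TPM and at 19.9, 25.5 and 22.9 TPM. The imprinted growth genes H19 and Igf2 had 0 reads, and 61.2% of the windows of Igf2 occur in another gene, so its reads may not be counted. Spp1, osteopontin, had 27, 15 and 13 reads.

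The libraries read as male. Xist, the RNA of the silenced X chromosome, had 0 reads in each, and the Y-linked Ddx3y and Eif2s3y stood at 50.7, 54.4 and 55.3 TPM and at 51.1, 52.1 and 50.7 TPM. All 15 genes of the male-biased liver list reached 1 CPM, with a median of 33.0 TPM, and 4 of 20 of the female-biased list. The highest of the latter, Sult1e1, the estrogen sulfotransferase, had 31.9, 24.7 and 26.3 TPM. The labels used here do not give the sex.

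The hepatocyte label was checked against marker genes. All 19 hepatocyte markers reached 1 CPM with a median of 550.1 TPM, and their lowest member was Slc10a1. That median was 33.9 ± 1.95 times (SD, n = 3) the median of Kupffer cell markers, 117 ± 8.04 times that of endothelial markers, 169 ± 15.0 times that of stellate cell and fibroblast markers and 174 ± 8.50 times that of bile duct (cholangiocyte) markers. Without members under 10 mean reads, an alternative added after the data were seen, these ratios were 32.1 ± 1.03 with 19 Kupffer genes, 91.4 ± 3.69 with 18 endothelial genes, 132 ± 15.2 with 20 stellate genes and 38.8 ± 2.58 with 11 bile duct genes. The hepatocyte list includes genes of very abundant secreted proteins, such as Alb, Ttr and Apoa1. The size of these ratios thus depends on the genes listed and is not a measure of purity. In such bulk libraries fewer cells of a type and less RNA per cell cannot be told apart.

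Of the Kupffer cell list, the resident macrophages of liver, 19 of 20 genes reached 1 CPM. Its summed level was 656.9, 635.2 and 661.7 CPM. Cd68, a lysosomal protein, and Cd14, the lipopolysaccharide co-receptor, led it at 589, 597 and 639 TPM and at 202, 187 and 198 TPM. Of the 20 genes 14 reached 10 TPM in every library, and the list median was 16.2 TPM. Clec4f, a lectin of Kupffer cells, lay near that median at 14.8, 15.8 and 13.5 TPM. Below it were Adgre1 (F4/80), at 2.20, 1.51 and 1.86 TPM, and Ptprc (CD45), the common leukocyte antigen, at 0.179, 0.299 and 0.311 TPM. The levels within the list thus ran from 0.103 to 608.3 TPM, and the part that macrophages had in any inflammatory gene above was not tested.

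Sinusoidal endothelial markers were low but present, with 17 of 20 genes at 1 CPM and a sum of 346.5 to 367.8 CPM. Lyve1, a hyaluronan receptor, was at 58.1, 49.2 and 43.1 TPM, highest in WT 1, and Vwf, a marker of large vessels, had 1, 2 and 0 reads. For stellate cells and fibroblasts 18 of 22 genes reached 1 CPM, with a sum of 629.4 to 639.0 CPM. Ecm1, an extracellular matrix protein that hepatocytes also make, was the highest at 169, 163 and 155 TPM, whereas Col1a1, a collagen I chain, stood at 3.19, 3.65 and 5.23 TPM and Des, desmin, at 1.33, 1.42 and 1.92 TPM. Of the bile duct list 10 of 15 genes reached 1 CPM, with Krt19 at 17.6, 21.2 and 22.8 TPM and Cftr, the chloride channel, at 0 reads. Lymphocyte genes reached 1 CPM in 0 of 20, mesothelial genes in 1 of 8, neutrophil and monocyte genes in 3 of 15, platelet genes in 1 of 8 and genes of non-liver tissues in 5 of 25. The single erythroid gene of 11 at 1 CPM was Alas2, a haem synthesis enzyme, at 45.4, 38.0 and 45.5 TPM, while the globin gene Hbb-bs had 4, 1 and 3 reads with 53.2% of its windows shared.

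**Figure D4:**
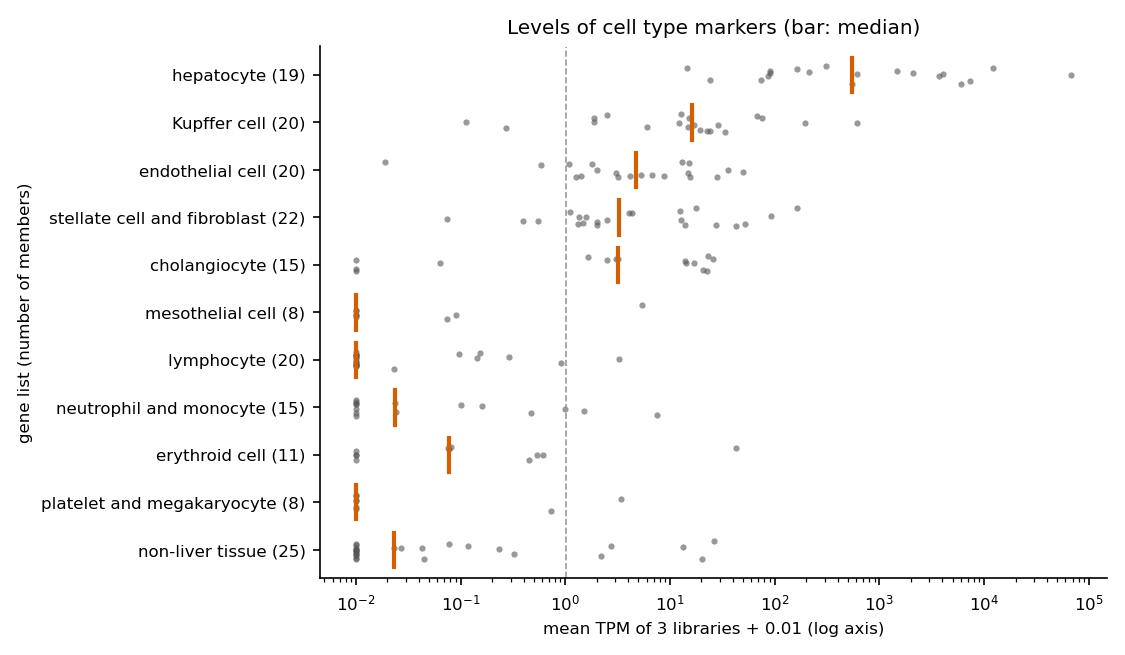
Mean TPM over 3 libraries plus 0.01 (log axis) of marker genes (grey points) of hepatocytes and of other cell types, with list medians (orange bars) and a dashed line at 1 TPM. The hepatocyte median of 550.1 TPM is the highest, followed by that of Kupffer cells at 16.2 TPM, and lymphocyte, mesothelial and platelet medians lie at 0.

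By annotated biotype, protein-coding genes held 98.5% ± 0.422 of gene reads (SD, n = 3), long noncoding RNA 0.541% ± 0.0337 and pseudogenes 0.281% ± 0.0248. Malat1, a nuclear RNA, was the highest long noncoding gene at 1609, 1167 and 1214 CPM, highest in WT 1. Genes on the mitochondrial chromosome held 6.14%, 6.28% and 6.45% in WT 1 to 3. mt-Co1, a catalytic subunit of cytochrome oxidase, led them at 36710, 36456 and 35892 TPM with 51.1% of its windows shared with other genes, and mt-Nd1, a complex I subunit, followed at 28721, 30728 and 31894 TPM. Of the 13 mitochondrial protein genes 5 are listed at 0 reads, and 7 share at least 10% of their windows with another gene. Of the 38 nuclear genes of the respiratory chain 37 reached 1 CPM, with a median of 215.3 TPM.

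Reads with several matching places are not counted, which bears on genes with near-identical copies. Gapdh, the glycolytic enzyme often taken as a reference gene, stood at 31, 33.3 and 34.2 CPM, with 24.7% of its windows shared. The processed pseudogene Gm13394, of which 94.7% of windows are shared, had 717, 711 and 609.6 CPM. Krt8-ps, a processed pseudogene named for Krt8, had 132.7, 136.4 and 106.3 CPM. Cytosolic ribosomal proteins together had 0.872% ± 0.0160 of gene reads (SD, n = 3), and 65 of their 83 genes share at least 10% of windows. How far uncounted reads set the levels of these genes was not tested, and they are not read as levels of expression.

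The spread over the libraries was tested gene by gene with a chi-square test of the 3 counts against the library totals. Of 13327 genes with at least 10 reads on average, 3860 passed at a Benjamini-Hochberg adjusted p under 0.05 (28.96%), and 661 (4.96%) also had a highest library at least 1.5 times the lowest. Plasma protein genes passed more often, 95 of 140 tested, but 4 reached 1.5-fold. The cytoskeleton and culture list passed in 37 of 55, and 0 reached 1.5-fold. Deeply read genes pass at smaller differences: 91.8% of genes over 10000 mean reads passed, with a median coefficient of variation of 4.16%, and 13.4% of genes with 10 to 100 reads, where it was 21.2% and counting error alone gives 18.1%.

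WT 1 stood apart from WT 2 and WT 3. The test of 2 libraries at a time passed 2784 genes between WT 1 and WT 2, 3148 between WT 1 and WT 3 and 724 between WT 2 and WT 3. These tests set the libraries against counting error alone and treat reads as independent. The common biological coefficient of variation from edgeR was 7.67% over the 3 libraries and 4.05% without WT 1. Among 8617 genes of at least 10 CPM, 81 passed with a 1.5-fold range. WT 1 was the highest library in 38 of these, the lowest in 41, and neither in 2. All 16 genes with a 3-fold range were highest in WT 1, and among the 20 with a 2-fold range 10 were pseudogenes. Of the 13327 genes tested at any level, 355 were pseudogenes, and 81 of these passed with a 1.5-fold range, against 661 of all genes. The 10 pseudogenes share 12.5% to 100% of their windows with other genes, so their levels are uncertain.

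Ribosomal RNA and several ribosomal protein copies were among the genes highest in WT 1. The widest range, 5.999-fold, was that of Gm15564, annotated as an antisense gene, at 28.9, 5.13 and 4.82 CPM. CT010467.1, annotated as ribosomal RNA (chromosome 17, 39846353 to 39848827 on GRCm38), stood at 8228, 2060 and 2752 CPM, 3.99-fold from highest to lowest library. Lars2, which encodes a mitochondrial leucyl-tRNA synthetase, was at 231, 64.9 and 75.4 CPM and Mir6236, annotated as a microRNA gene, at 317, 90.5 and 119 CPM. The 301 ribosomal protein pseudogenes summed to 477.6, 325.5 and 311.6 CPM. Of these, 139 had no reads and 218 share at least 10% of their windows with another gene, so the sum is uncertain. Genes lowest in WT 1 included Tpt1, translationally controlled tumour protein, at 108.6, 176.9 and 187.6 CPM with 18.7% of its windows shared, Anp32a, an acidic nuclear phosphoprotein, at 98.2, 165.3 and 168.3 CPM, and Ppig, a cyclophilin of splicing speckles, at 39.2, 62.0 and 70.8 CPM. The library WT 1 also had more unmapped reads, 10.4% against 9.27% and 9.31%, and more reads outside genes, 6.01% against 4.90% and 5.09%. Whether these read classes have a part in the gene differences of WT 1 was not tested.

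**Figure D5:**
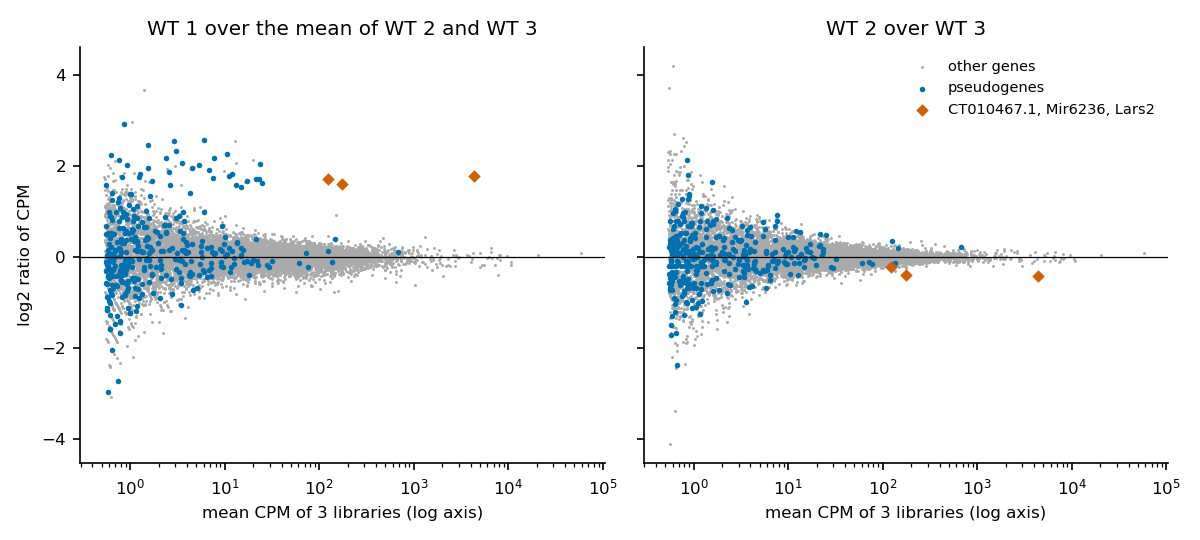
Log2 ratio of CPM of WT 1 over the mean of WT 2 and WT 3 (left) and of WT 2 over WT 3 (right) against mean CPM over 3 libraries (log axis), with pseudogenes in blue and CT010467.1, Mir6236 and Lars2 as orange diamonds. The diamonds lie above 0 at the left and below 0 at the right. CT010467.1, for example, stood at 8228, 2060 and 2752 CPM in WT 1 to 3. A group of pseudogenes also lies above 0 at the left, and at the right its members lie on both sides of 0.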

How the data were processed

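RNA was sequenced from 3 WT libraries made with a TruSeq RNA kit and read in repeated rounds on a HiSeq3000, per the labels' protocols. The submitters' processing notes name STAR 2.7.9a, edgeR 3.18.1, Trim Galore 0.6.6 and FastQC 0.11.2, with GRCm38 and mm10 as builds. Options and annotation release: not given in the sources used here. The authors deposited raw counts of reads per gene, unstranded and by strand. The reverse-strand column held 97.2% ± 0.0161 (SD, n = 3) of stranded reads and was used. The first 4 rows, which name no gene, were left out of totals: unmapped reads were 9.67% ± 0.664 of all reads, multi-mapped 20.1% ± 0.176, outside genes 5.34% ± 0.594 and over several genes 0.820% ± 0.0178. Reads carried no molecular identifiers, so the limit of 3 reads covers counting error only.

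CPM are counts scaled to the total of gene reads, and TPM used summed exon lengths of GENCODE M21, which held 55227 of 55487 identifiers. Windows of 50 bases found in another gene were counted, and genes with at least 10% shared are called uncertain. Of 986 listed symbols 985 matched. The members, lists and tests were chosen with earlier results of these data known. Some listed genes and pairs are not reported here. Named genes were list members, pairs, the 30 highest genes by TPM or CPM, the 20 most variable of at least 10 CPM, and the 10 highest pseudogenes and noncoding RNAs. Spread was tested with a chi-square test on counts (scipy 1.17.1, Python 3.11.15) and sized with edgeR 4.0.16. The test was also run on simulated counts with counting error only. There it recovered 74% of the genes changed 1.5-fold in 1 library, and 3.21% of its calls were false. That run cannot show how the test behaves where libraries vary by more than counting error. Alternatives used the counts of either strand, TMM and DESeq2 1.42.0 size factors, all reads, other thresholds and lengths, and left out each library.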

Additional observations from a re-analysis of the deposited data

How the results depend on the processing

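No paired analysis was possible because only the WT group was used and no groups were compared. With all reads as denominator the 100 highest genes held 22.0%, plasma proteins 12.7%, mitochondrially encoded genes 4.03% and pseudogenes 0.180%. With mitochondrial genes left out of the total the 100 highest held 30.6% and plasma proteins 21.2%, and with reads of either strand the 100 highest held 34.7% and mitochondrial genes 6.77%. The hepatocyte to Kupffer marker ratio was 31.4 with the longest transcript as length. Leaving out 1 library gave 724 to 3148 genes varying beyond counting error and 95 to 478 varying 1.5-fold, the lowest of each without WT 1. A minimum of 50 mean reads gave 361 varying 1.5-fold. TMM factors gave 3824 and DESeq2 size factors 3806 genes beyond counting error. The mean log2 ratio of none of the 20 pairs changed sign under the alternatives run, but the longest transcript moved 15 of them by more than their SD and left 11 of 13 pairs with the adult member higher in every library. TPM depend on the annotated lengths, which moved 2 of 44 list medians by over 1.5-fold. Reads of either strand moved 1, and leaving out members under 10 mean reads moved 9, the P450 list from 12.7 to 52.2, major urinary proteins from 58.1 to 125.1, fetal genes from 0.125 to 4.44 and bile duct markers from 3.16 to 14.2 TPM. Lists with a median of 0 are not in that count. Genes with near-identical copies lose reads.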
